A study of Mus musculus with 24 samples.

Results

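Every CpG cytosine that was measured inside Cux1 or Cux2, or within 5 kb of either gene, was taken from the table of methylation percentages of the mouse dentate gyrus, on both strands. These were 140 CpG cytosines at Cux1 and 279 at Cux2, 419 of the 762162 CpG cytosines in the table. Cux2 holds the cytosine at which the study followed up its methylation data with chromatin immunoprecipitation. Cux2 was chosen by the methylation differences between these same mice at this cytosine, and Cux1 is the other gene of its family. The values of the cytosine are therefore given as a description. It stayed in the fit over all CpGs and in the counts of called CpGs over the alternative fits, in none of which it was called. Its p-values are otherwise not used. It was left out of the counts of tested cytosines in the comparisons below and of the gene parts.

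The samples were micro-dissected dentate gyri of female C57BL/6JRj mice, 1 mouse per library. Young STD mice (5 mice) were 1.5 months old and had lived in standard cages, Aged STD mice (7 mice) were 14 months old and had lived in standard cages, and Aged ENR mice (7 mice) were 14 months old and had lived in an enriched environment for over a year. The age contrast is the value in Aged STD minus that in Young STD mice, the housing contrast is Aged ENR minus Aged STD, and the combined contrast is Aged ENR minus Young STD, so each pair of contrasts shares mice. The 5 mice of a Young ENR group that the sample descriptions also name were not analysed here. All mice were of the same strain and sex, and the dentate gyrus holds neurons, glia and vascular cells together, so a change in methylation and a change in the share of a cell type cannot be told apart. No RNA was measured in these samples, so the labelled tissue was not checked against marker genes.

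Cux1 and Cux2 encode homeobox transcription factors with CUT domains, a DNA-binding domain they share with the Onecut proteins and Satb1. In the cerebral cortex they are known as markers of upper-layer neurons and shape dendrites, spines and synapses. Methylation of the cytosine in a CpG is usually low at active CpG-rich promoters and high in gene bodies, whereas partly methylated stretches in introns are often found at distal regulatory elements. Reduced representation bisulfite sequencing (RRBS) reads the ends of fragments that the enzyme MspI cuts at CCGG, whether or not the inner cytosine is methylated. It therefore sees a few stretches of a gene rather than all of it.

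Both genes lie on the minus strand of chromosome 5 (mm10). Cux1 (ENSMUSG00000029705) spans chr5:136248135-136567490, which is 319 kb with 14 annotated transcripts, and Cux2 (ENSMUSG00000042589) spans chr5:121856366-122050102, which is 194 kb with 11 transcripts. The measured cytosines made up 2.12% of all cytosines in CpGs on either strand of the Cux1 locus and 3.46% of those of the Cux2 locus. They formed 26 clusters at Cux1 and 39 at Cux2, when neighbours up to 200 bases apart were joined. Of the Cux1 cytosines 73 lay in the gene and 67 in its flanks, and of the Cux2 cytosines 241 lay in the gene and 38 in its flanks. Only 6 cytosines at Cux1 and 26 at Cux2 were measured in all 19 mice, with a median of 13 and 14 mice per cytosine.

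The promoter windows of both genes are shown because they carried almost no methylation, in contrast to the introns described further on. They are 300 bases around a gene start (RefSeq, GRCm38.p6), are written 5′ to 3′ on the minus strand, and have every CpG in capitals. The window of Cux2 (chr5:122049802-122050101) holds 48 CpGs, with 15 measured cytosines, and that of Cux1 (chr5:136565932-136566231) holds 25 CpGs, with 3 measured cytosines.
Cux2 promoter: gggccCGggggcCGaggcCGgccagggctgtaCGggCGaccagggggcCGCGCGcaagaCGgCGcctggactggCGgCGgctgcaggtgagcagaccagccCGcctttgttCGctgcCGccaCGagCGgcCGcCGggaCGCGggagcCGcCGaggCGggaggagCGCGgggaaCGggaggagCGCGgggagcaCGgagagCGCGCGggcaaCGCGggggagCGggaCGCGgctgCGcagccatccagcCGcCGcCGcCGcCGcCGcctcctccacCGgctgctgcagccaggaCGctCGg
Cux1 promoter: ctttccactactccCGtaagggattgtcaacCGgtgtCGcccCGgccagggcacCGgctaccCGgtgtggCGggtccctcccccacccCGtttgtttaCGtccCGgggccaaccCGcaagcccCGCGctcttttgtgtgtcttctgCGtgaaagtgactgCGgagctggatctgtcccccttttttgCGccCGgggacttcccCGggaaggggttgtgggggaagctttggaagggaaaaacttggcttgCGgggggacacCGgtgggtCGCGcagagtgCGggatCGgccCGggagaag

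The stretch with the study's cytosine is shown because the comparison of neighbouring CpGs turns on it (chr5:121938692-121938936, plus strand of mm10, measured CpGs in capitals). It runs from just before one MspI site, through the next, to the end of the region that was amplified in the chromatin immunoprecipitation. The study's cytosine is the minus-strand cytosine of the last CpG in capitals, chr5:121938836, at the position where a read from that strand begins. It lies in an intron of Cux2, 111 kb from the first base of the gene.
Cux2 cluster 26: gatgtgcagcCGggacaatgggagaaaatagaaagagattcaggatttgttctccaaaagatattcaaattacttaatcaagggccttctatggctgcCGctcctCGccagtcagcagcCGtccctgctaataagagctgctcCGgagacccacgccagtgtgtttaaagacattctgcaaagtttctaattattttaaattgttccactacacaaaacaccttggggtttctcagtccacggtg

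A further 3 stretches hold the single CpGs with the lowest p-value or the largest differences that are described further on, again as the plus strand with measured CpGs in capitals. The stretches are cluster 22 of Cux2 (chr5:121958465-121958620), part of cluster 31 of Cux2 (chr5:121904839-121904969) and part of cluster 16 of Cux1 (chr5:136332987-136333088), all in introns.
Cux2 cluster 22: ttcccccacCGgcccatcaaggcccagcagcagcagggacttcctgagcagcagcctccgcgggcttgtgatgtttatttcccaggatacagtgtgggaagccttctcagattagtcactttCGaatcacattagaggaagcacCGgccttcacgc
Cux2 cluster 31: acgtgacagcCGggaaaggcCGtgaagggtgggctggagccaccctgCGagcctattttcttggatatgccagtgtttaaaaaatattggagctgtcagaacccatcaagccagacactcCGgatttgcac
Cux1 cluster 16: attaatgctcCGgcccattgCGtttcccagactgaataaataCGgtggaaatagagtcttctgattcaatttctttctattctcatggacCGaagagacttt

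Along both genes, methylation was mostly low at the starts, variable in introns and mostly high in coding exons. Levels are means of the 3 group means. At Cux1, 111 cytosines (79.3%) had a level under 20%, 13 lay between 20% and 80%, and 16 lay above 80%. At Cux2, 158 cytosines (56.6%) had a level under 20%, 74 (26.5%) lay between 20% and 80%, and 47 lay above 80%. Of all CpG cytosines, 63.2% lay under 20% and 15.9% lay between 20% and 80%.

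Within 1000 bases of any annotated transcript start, all 56 cytosines of Cux1 and 92 of 104 of Cux2 had a level under 20%. Single mice could stand higher. Cluster 8 of Cux1, with 2 of these cytosines, averaged 9.22% in Young STD, 28.4% in Aged STD and 23.9% in Aged ENR mice. It reached 76.6% in Aged STD mouse 1 and 79.3% in Aged ENR mouse 6. Of the 12 partly methylated promoter cytosines of Cux2, 10 formed cluster 30, near an internal start 136 kb from the first base. This cluster had 52.5% ± 15.0 (SD, n = 5) in Young STD, 50.1% ± 17.3 (n = 7) in Aged STD and 55.9% ± 18.0 (n = 7) in Aged ENR mice, whereas cluster 5 with 45 cytosines near the first base of Cux2 had 1.02% ± 0.56, 1.44% ± 1.00 and 0.80% ± 0.65. Coding exons showed the opposite level, since 6 of 7 cytosines at Cux1 and 9 of 10 at Cux2 lay above 80%. The introns of Cux2 held 147 measured cytosines, of which 57 were partly methylated, and those of Cux1 held 40, of which 12 were. Beyond the 3′ end of Cux1, all 21 flanking cytosines lay near the promoter of the neighbouring gene Sh2b2 and had a level under 20%, with a median of 0.608%.

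**Figure D1:**
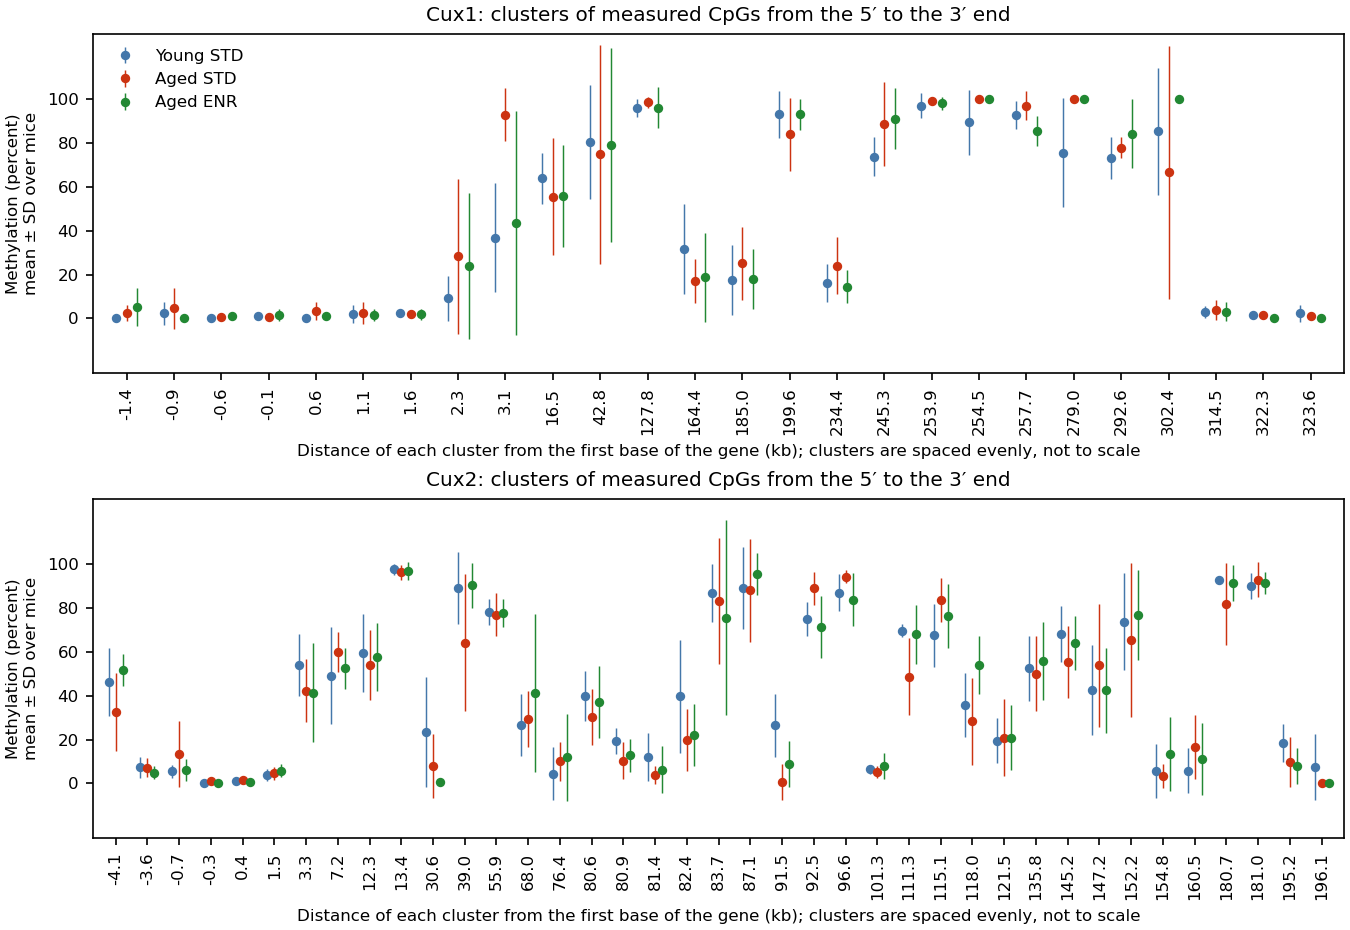
Methylation in percent (vertical axis, mean ± SD over mice with a value) of each cluster of measured CpGs in the 3 groups of mice, against the distance of the cluster from the first base of the gene in kb (clusters spaced evenly, not to scale). Cluster 3 of Cux1 and cluster 5 of Cux2, which hold the most cytosines near the first base, lie between 0.11% and 1.44% in each group, while intronic clusters range from under 20% to over 80% with wide error bars.

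Libraries differed in coverage. Between 64.3% and 95.2% of the CpG cytosines in the table were measured per mouse, and no read counts accompany the percentages, so that the depth behind a value is unknown beyond the authors' minimum of 10 reads. Library numbers in the sample descriptions begin with 27 (3 mice of Young STD, 4 of Aged STD and 4 of Aged ENR) or 37 (2, 3 and 3 mice in this order), and differences are also given within these library series. A composition index of each library, the mean level in the other mice of the CpGs it measured, ranged from 29.4% to 31.0% in Young STD, from 18.6% to 36.6% in Aged STD and from 22.5% to 34.9% in Aged ENR mice. The index therefore varied more among aged than among young mice, and its values are given beside some of the results.

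At the study's Cux2 cytosine, Young STD mice had 87.2%, 69.8%, 78.6%, 40.5% and 40.9% methylation. Aged STD mice had 51.3%, 10.4%, 2%, 0%, 22.9%, 0% and 50%. The 4 Aged ENR mice with a value had 100%, 100%, 66.7% and 100%, and the other 3 had none. The values of Young STD and Aged STD mice overlapped, and those of Aged STD and Aged ENR mice did not. The means were 63.4% ± 21.6 (SD, n = 5), 19.5% ± 22.7 (n = 7) and 91.7% ± 16.7 (n = 4), which gave an age contrast of -43.89 points, a housing contrast of 72.15 points and a combined contrast of 28.3 points. The age contrast was -62.6 points within library series 27 (4 and 3 mice) and -16.4 points within series 37 (3 and 2 mice). For housing it was 84.1 points in series 27 (2 and 4 mice) and 59.0 points in series 37 (2 and 3 mice). Aged STD mice 3, 4 and 6, with 2%, 0% and 0%, had the lowest composition indices of their group, 18.8%, 20.1% and 18.6%, against 27.8% to 36.6% in the other 4. The part of library composition in these differences was not tested. The cytosine of the same CpG on the plus strand was not measured.

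A further 4 cytosines within 500 bases were measured, all on the same MspI fragment of 135 bases (chr5:121938702-121938836). Of these, 3 are on the minus strand, 24, 38 and 45 bases from the study's cytosine, and 1 lies at the other end of the fragment on the plus strand, 134 bases away. The cytosine 24 bases away (chr5:121938812) had 22.7%, 76%, 80%, 97.6% and 100% in Young STD mice, 88.9%, 100%, 100%, 100%, 23.5%, 0% and 0% in Aged STD mice, and 0%, 60% and 100% in the 3 Aged ENR mice with a value. All groups overlapped there. The cytosine 38 bases away (chr5:121938798) had 93.2% ± 13.1 (SD, n = 5) in Young STD, 75.1% ± 27.6 (n = 7) in Aged STD and 100% in each of 4 Aged ENR mice. At 45 bases (chr5:121938791) the means were 93.0% ± 15.6 (n = 5), 83.1% ± 26.1 (n = 7) and 75% ± 50 (n = 4).

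The mean of these 3 minus-strand neighbours was 87.2% ± 15.3 (SD, n = 5) in Young STD, 72.4% ± 31.96 (n = 7) in Aged STD and 75.8% ± 22.01 (n = 4) in Aged ENR mice. Aged ENR mouse 2 had no value at chr5:121938812, so its 50% is the mean of 0% at chr5:121938791 and 100% at chr5:121938798. The age contrast of the neighbours was thus -14.8 points and their housing contrast 3.48 points, against -43.89 and 72.15 points at the study's cytosine. The groups overlapped at the neighbours in both comparisons. Mice differed in how the cytosine stood to its neighbours. In Aged STD mice 2, 3 and 4 the neighbours averaged 100%, 99.2% and 100% while the study's cytosine had 10.4%, 2% and 0%. In Aged STD mice 5, 6 and 7 the neighbours averaged 40.1%, 27.3% and 50% and the cytosine had 22.9%, 0% and 50%. The age contrast of the neighbours was 18.4 points in library series 27 and -60.5 points in series 37, so its direction was not the same in the 2 series. Their housing contrast was -38.9 points in series 27 and 54.2 points in series 37, where that of the study's cytosine was 59.0 points. Taken as the study's cytosine minus its neighbours, the age contrast was -81.0 and 44.1 points in series 27 and 37. The housing contrast of this gap was 123.0 points in series 27, over 2 Aged ENR and 4 Aged STD mice. In series 37 it was 4.85 points, over 2 and 3 mice. The value in series 27 rests on few neighbour values, among them 0% at chr5:121938812 in Aged ENR mouse 1 and 0% at chr5:121938791 in mouse 2.

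At the other end of the fragment, the plus-strand cytosine (chr5:121938702) was measured in all mice. It had 58.6%, 6.86%, 19.4%, 34.5% and 0% in Young STD mice, 0%, 0%, 0%, 0%, 25.7%, 12.2% and 12.5% in Aged STD mice, and 30%, 47.8%, 41.0%, 24.1%, 17.4%, 11.9% and 0% in Aged ENR mice. The means were 23.9% ± 23.4 (SD, n = 5), 7.20% ± 10.02 (n = 7) and 24.6% ± 16.6 (n = 7), and the groups overlapped. Neither the age contrast of -16.67 points (SE 9.51, limma, adjusted p = 0.760) nor the housing contrast of 17.38 points (SE 7.86, limma, adjusted p = 0.769) passed the test over all CpGs. Within series 27 they were -28.3 and 35.7 points, and within series 37 they were -0.43 and -7.05 points.

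For comparison with the rest of the table, pairs of CpG cytosines at most 50 bases apart on the same strand were examined. Where the age contrast of one was below -25 points (22500 cytosines), the median contrast of its neighbours was -13.9 points and 31.5% of the neighbours were also below -25 points. Where the housing contrast of one was above 25 points (14870 cytosines), the median of its neighbours was 9.25 points and 23.8% of them were also above 25 points.

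**Figure D2:**
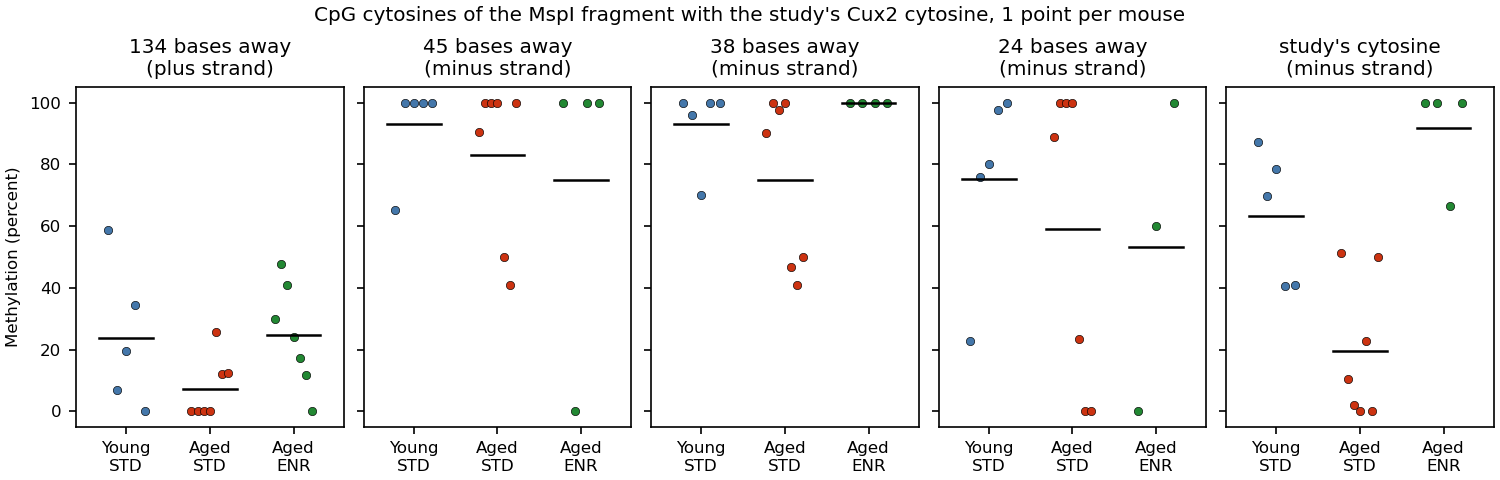
Methylation in percent of the 5 measured CpG cytosines of the MspI fragment with the study's Cux2 cytosine, 1 point per mouse with a value and a line at the group mean, in panels ordered by distance in bases from that cytosine. Aged STD mice sit between 0% and 51.3% at the study's cytosine, while at each of the 3 minus-strand neighbours several of them sit at or near 100%.

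Aged STD and Young STD mice were compared to ask which CpGs of the genes differ with age under standard housing. A CpG passed if its adjusted p was under 0.05 with over 25 points between the group means (limma on percentages, Benjamini-Hochberg over all 527597 CpG cytosines tested). None of the 81 tested cytosines of Cux1 and none of the other 215 of Cux2 passed, and 0% of all CpGs passed. The smallest adjusted p was 0.760 at Cux1 and 0.575 at Cux2. The remaining 59 and 63 cytosines had the same value in every mouse compared, which was 0% for 56 and 59 of them, and could not be tested. An unadjusted p under 0.05 was reached by 3 of 81 cytosines of Cux1 (0 lower and 3 higher in Aged STD mice) and by 10 of 215 of Cux2 (7 lower and 3 higher), against 4.42% of all CpGs, 3.33% lower and 1.09% higher.

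Contrasts over 25 points, regardless of any test, were found at 8.64% of the tested cytosines of Cux1 in the higher direction (7 cytosines) and at 1.23% in the lower direction (1 cytosine). Over all CpGs the shares were 2.17% higher and 7.19% lower. At Cux2, without the study's cytosine, 4.65% were over 25 points higher (10 cytosines) and 7.44% over 25 points lower (16 cytosines). The median difference was 1.10 points at Cux1 and -1.10 points at Cux2, against -0.563 points over all CpGs. Among tested cytosines measured in every mouse of both groups, 0 of 9 at Cux1 and 0 of 39 at Cux2 had groups that did not overlap, against 0.432% of all such CpGs.

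The lowest p-value of the loci belonged to a minus-strand cytosine in cluster 22 of Cux2 (chr5:121958475), also at the start of an MspI fragment, in an intron 91.6 kb from the first base. It was singled out after its values had been seen. Young STD mice had 46.6%, 65.3%, 50% and 32.1%, with 1 mouse missing. Aged STD mice had 1.72% in 1 mouse and 0% in the other 6, and Aged ENR mice had 30.3% in 1 mouse and 0% in the other 5 with a value. All Young STD mice were above all aged mice of either group, and the aged groups overlapped. The age contrast was -48.25 points (SE 7.10, limma, unadjusted p = 2.31e-05, adjusted p = 0.575) and the combined contrast -43.44 points (SE 10.68, limma, adjusted p = 0.776). Within library series 27 the age contrast was -53.5 points (4 and 3 mice), and within series 37 it was -32.1 points (3 mice and 1 mouse). With 1 prior variance for all CpGs its adjusted p was 0.0177, and with all 3 groups in the fit it was 0.0288, so the call depended on how the variance was estimated.

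Its neighbours had smaller contrasts. The other 2 measured cytosines of cluster 22, on the same strand at chr5:121958588 and chr5:121958610, had 23.0% ± 26.5 (SD, n = 4) and 7.89% ± 7.56 (n = 4) in Young STD mice, and 10.7% ± 21.4 (n = 4) and 3.12% ± 6.25 (n = 4) in Aged STD mice. Their age contrasts were -12.24 and -4.77 points (limma, adjusted p = 0.760 for both), and the groups overlapped.

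At Cux1 the largest age contrast, also singled out after its values had been seen, was that of a minus-strand intronic cytosine 3.15 kb from the first base (chr5:136564343, cluster 9), measured in 10 of 19 mice. Young STD mice had 0%, 54.2%, 42.9% and 50%, Aged STD mice 79.2%, 100% and 100%, and Aged ENR mice 0%, 30.8% and 100%. The 3 Aged STD mice were above the 4 Young STD mice, and the aged groups overlapped. Neither the age contrast of 56.30 points (SE 18.75, limma, adjusted p = 0.760) nor the housing contrast of -49.47 points (SE 26.92, limma, adjusted p = 0.769) passed the test.

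By the rule for named CpGs, the cytosines measured in every mouse compared with the largest differences lay in cluster 16 of Cux1 and cluster 31 of Cux2. In cluster 16 of Cux1, the plus-strand cytosine chr5:136333007 had a median of 0% and a highest value of 7.32% in 5 Young STD mice, a lowest value of 0%, a median of 37.1% and a highest value of 66.7% in Aged STD mice, and at most 21.7% in Aged ENR mice. Its age contrast was 32.32 points (SE 11.58, limma, adjusted p = 0.760), and within library series 27 and 37 it was 25.6 and 41.5 points. The cytosine 22 bases away on the same strand (chr5:136333029) had an age contrast of 19.32 points (SE 11.87, adjusted p = 0.760), which was 0.824 points in library series 27 and 44.9 points in the other. The minus-strand partner of the latter CpG (chr5:136333030) had 11.3% ± 7.15 (n = 5) in Young STD and 10.6% ± 10.2 (n = 7) in Aged STD mice.

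In cluster 31 of Cux2, the plus-strand cytosine chr5:121904849 ranged from 41.4% to 100% in Young STD mice, from 0% to 72.9% in Aged STD mice and from 22.5% to 88.2% in Aged ENR mice. Its age contrast was -43.96 points (SE 18.35, limma, adjusted p = 0.760). That of chr5:121904886 was -34.13 points (SE 18.59, adjusted p = 0.760), with means of 70.3% ± 26.5 (n = 5) and 36.1% ± 31.3 (n = 7). The groups overlapped at both. Both contrasts had the same direction in the 2 library series, at -33.9 and -59.4 points for the former and -33.5 and -37.1 points for the latter. Among the cytosines of Cux2 measured in every mouse compared, the largest positive age contrasts were 15.10 points at chr5:121928624 and 13.81 points at chr5:122048783 (limma, adjusted p = 0.760 for both). The latter lies near the first base, where the promoter of the antisense transcript Gm15637 overlaps Cux2, and rested on Aged STD mouse 4 with 100%, since the next highest Aged STD mouse had 10.3%. Among those of Cux1 measured in every mouse compared, the largest negative age contrasts were -5.59 points at chr5:136333078 and -4.79 points at chr5:136382568.

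**Figure D3:**
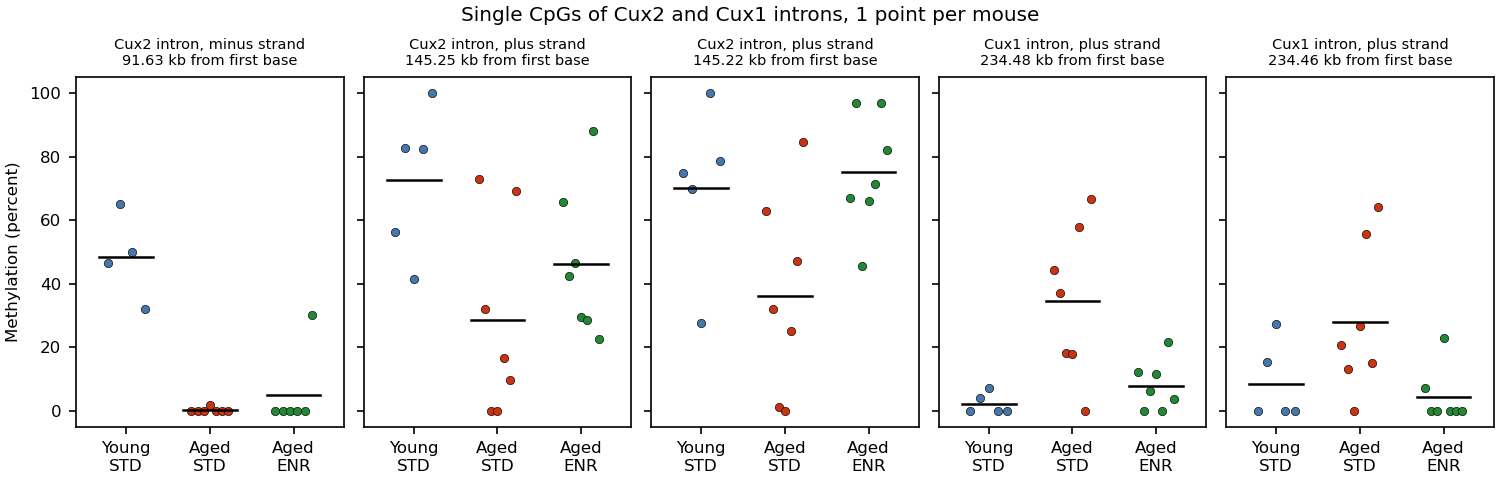
Methylation in percent of 5 single CpG cytosines in introns of Cux2 and Cux1, 1 point per mouse with a value and a line at the group mean, each panel titled with the distance from the first base of the gene in kb. In the first panel the Young STD mice lie between 32.1% and 65.3% and all but 2 of the aged mice at 0%, and in the other 4 panels the groups overlap.

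Aged ENR and Aged STD mice were compared to ask which CpGs differ with housing at 14 months. Again 0 of 79 tested cytosines of Cux1 and 0 of the other 218 of Cux2 passed (limma, smallest adjusted p 0.769 in both), and 0% of 530258 CpGs passed. Unadjusted p-values under 0.05 were found for 2 of 79 at Cux1 (both lower in Aged ENR mice) and for 5 of 218 at Cux2 (1 lower and 4 higher), against 2.25% of all CpGs, 0.798% lower and 1.45% higher. Contrasts over 25 points were negative at 6 and positive at 3 cytosines of Cux1 (7.59% and 3.80% of those tested), and negative at 7 and positive at 12 of Cux2 without the study's cytosine (3.21% and 5.50%), against 2.62% and 4.53% of all CpGs. The median was -1.10 points at Cux1 and 0.12 points at Cux2, against 0.319 points over all CpGs. The groups overlapped at all 6 tested cytosines of Cux1 with a value in every mouse and all 40 of Cux2, as against 0.0162% of such CpGs with separate groups.

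The Aged STD mice enter both comparisons, and several of the named cytosines were named in both. The housing contrast was -26.63 points at chr5:136333007 (SE 10.59) and -23.61 points at chr5:136333029 (SE 9.59) of Cux1, and it was 39.11 points at chr5:121904886 (SE 14.86) and 34.74 points at chr5:121904859 (SE 14.79) of Cux2, each with an adjusted p of 0.769 in limma. The signs were the same within both library series, at -21.9 and -33.0 points, -7.61 and -44.9 points, 44.98 and 31.3 points, and 25.8 and 46.7 points. At these 4 cytosines Aged ENR mice averaged 7.98% ± 7.83, 4.30% ± 8.66, 75.2% ± 18.4 and 67.1% ± 24.4 (SD, n = 7). In Young STD mice the means were 2.30% ± 3.34 (n = 5), 8.59% ± 12.5 (n = 5), 70.3% ± 26.5 (n = 5) and 54.8% ± 31.8 (n = 4). Cytosine chr5:121994209 of Cux2 had 91.5% ± 11.9 in Aged STD and 71.2% ± 21.7 in Aged ENR mice, and chr5:122048789 had a housing contrast of -14.97 points, again with Aged STD mouse 4 at 100%. The only positive housing contrast that the rule named at Cux1 was 10.59 points at chr5:136333030.

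In the combined contrast, 0 of 74 tested cytosines of Cux1 and 0 of the other 217 of Cux2 passed (limma, smallest adjusted p 0.776 in both), and 0% of 522275 CpGs passed. An unadjusted p under 0.05 was found for 3 of 74 at Cux1 (1 lower and 2 higher in Aged ENR mice) and 5 of 217 at Cux2 (4 lower and 1 higher), against 3.95% of all CpGs, 2.56% lower and 1.4% higher. Contrasts over 25 points were negative at 2 and positive at 4 cytosines of Cux1, and negative at 9 and positive at 12 of Cux2 without the study's cytosine, against 5.21% and 2.39% of all CpGs. The largest contrasts among fully measured cytosines were -26.43 and -14.14 points at chr5:121904849 and chr5:121904959 and 21.64 and 11.70 points at chr5:122043046 and chr5:121928624 of Cux2. At Cux1 they were -10.29 and -8.02 points at chr5:136382393 and chr5:136332997 and 11.48 and 9.86 points at chr5:136382421 and chr5:136333030. The groups overlapped at each of these, as at all 12 fully measured cytosines of Cux1 and all 32 of Cux2, against 0.323% of such CpGs with separate groups.

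Whole gene parts were compared to ask whether a locus moved as a whole. For each mouse, the values of a promoter (within 1000 bases of any start) and of the rest of the gene were averaged after centring each CpG, so that mice with different measured CpGs compare, and all gene parts of the annotation with at least 5 CpGs were fitted. None of the 4 parts passed in any comparison (limma, adjusted over 26150, 26157 and 26361 parts, of which 0% passed). Unadjusted p-values under 0.05 were found for 0 of these 4 parts in each comparison, against 9.04%, 4.57% and 7.15% of all parts.

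The rest of Cux2 (156 cytosines without the study's) had 45.4%, 48.4%, 44.7%, 48.4% and 49.8% in Young STD mice. The 7 Aged STD mice ranged from 39.6% to 49.4% with a median of 42.4%, and the 7 Aged ENR mice from 42.0% to 51.5% with a median of 45.4%. The groups overlapped. The age contrast was -3.2 points (SE 2.72, limma, adjusted p = 0.730), against a median of -2.89 points over all such parts of genes, and it was -1.94 points with promoters taken within 500 bases of a start. The housing contrast was 2.16 points (SE 2.58, limma, adjusted p = 0.955), against a median of 1.01 points. As a plain mean over the 9 of these cytosines that were measured in all mice, the age contrast was -16.2 and the housing contrast 11.3 points, neither past the test. The level of this part correlated with the composition index of the libraries over 19 mice (Pearson r = 0.755, a description over libraries of 3 groups), and after adding the index as a term the age contrast was -0.71 and the housing contrast 0.66 points. The part of library composition in these contrasts was not tested further.

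The rest of Cux1 (47 cytosines) had 46.1%, 51.4%, 44.8%, 44.4% and 46.5% in Young STD mice, from 42.6% to 58.1% with a median of 50.7% in Aged STD mice and from 41.7% to 52.0% with a median of 48.7% in Aged ENR mice, with overlapping groups. The age contrast was 4.29 points (SE 3.05, limma, adjusted p = 0.682) and the housing contrast -2.97 points (SE 2.77, adjusted p = 0.952). Both had the same sign in the 2 library series, at 3.04 and 6.08 points for the former and -3.81 and -1.86 points for the latter. The correlation with the composition index was 0.414, and after adding the index the contrasts were 6.93 and -4.77 points. Over the 6 cytosines measured in all mice they were 7.93 and -9.62 points, but these 6 are cluster 16 alone, described above. Without Aged STD mouse 2 or Aged ENR mouse 4 the housing contrast was -1.77 or -1.94 points. The combined contrast was 1.31 points at the rest of Cux1 (SE 2.49, limma, adjusted p = 0.916), where the library series 27 and 37 gave -0.77 and 4.22 points, and -1.04 points at the rest of Cux2 (SE 2.46, adjusted p = 0.938).

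The promoters of Cux1 together had 1.26% ± 1.06 (SD, n = 5) in Young STD, 2.21% ± 1.32 (n = 7) in Aged STD and 2.17% ± 2.04 (n = 7) in Aged ENR mice. The age contrast was 0.95 points (SE 0.71, limma, adjusted p = 0.693) and the housing contrast -0.03 points (SE 0.88, adjusted p = 0.997). The promoters of Cux2 together had 6.93% ± 1.37, 9.14% ± 3.11 and 8.36% ± 2.82, with an age contrast of 2.21 points (SE 1.53, limma, adjusted p = 0.677) and a housing contrast of -0.77 points (SE 1.61, adjusted p = 0.967). The combined contrast was 0.92 points at the Cux1 promoters (SE 0.94, limma, adjusted p = 0.849) and 1.43 points at the Cux2 promoters (SE 1.41, adjusted p = 0.840). Aged STD mouse 5 had the highest value, 15.9%, and its library had the highest composition index, 36.6%. Without this mouse the Cux2 promoters had an age contrast of 1.08 and a housing contrast of 0.35 points, and with promoters taken within 500 bases of a start the age contrast was 0.53 points. After adding the composition index as a term, the age and housing contrasts of the Cux2 promoters were 3.70 and -1.72 points. The age contrast of the Cux1 promoters was 0.50 points without Aged STD mouse 7.

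**Figure D4:**
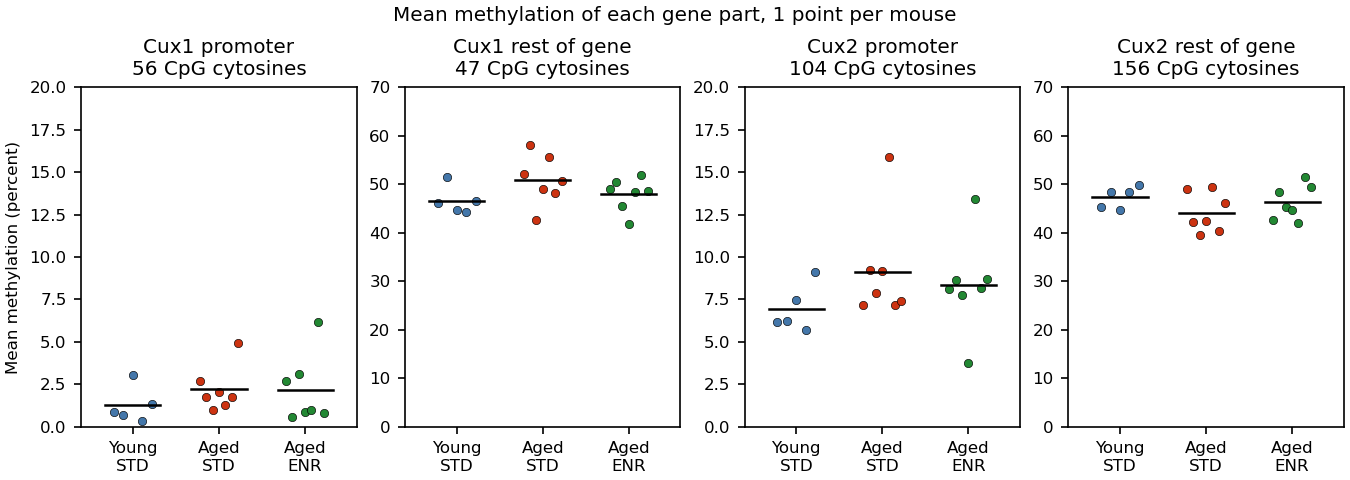
Mean methylation in percent of the promoter and of the rest of Cux1 and Cux2, 1 point per mouse and a line at the group mean (the vertical axes of the promoter panels end lower than those of the others). The 3 groups overlap in every panel, and in the panel of the Cux2 promoter 1 Aged STD mouse stands above the others at 15.9%.

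Of Onecut1, Onecut2, Onecut3 and Satb1, which also encode proteins with CUT domains, 7 gene parts had at least 5 CpGs. Onecut proteins are developmental transcription factors, and Satb1 organises chromatin. None of the 7 parts passed in any of the 3 comparisons. The rest of Satb1, with 11 cytosines, had 89.1% ± 5.77 (SD, n = 5) in Young STD and 81.4% ± 16.4 (n = 4, since 3 mice had no value) in Aged STD mice (age contrast -7.67 points, limma, adjusted p = 0.742). The rest of Onecut1, with 51 cytosines, was methylated far less than that of Cux1 or Cux2, with 12.7% ± 3.99 in Young STD and 9.98% ± 5.91 in Aged STD mice (age contrast -2.68 points, limma, adjusted p = 0.786).

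Over the 19 mice, the gene parts most like the rest of Cux2, of 12350 with at least 20 CpGs, were the rest of Agbl4 (Pearson r = 0.902), the rest of AC174471.1 (r = 0.878) and the promoter of Gpr50 (r = 0.858). The most like the rest of Cux1 was the rest of Gm16599 (r = 0.838), an antisense transcript that overlaps Cux1 and shares cytosines with it, followed by the promoters of Mettl22 (r = 0.790) and Rnpc3 (r = 0.787). The rest of Cux1 and the rest of Cux2 correlated with r = 0.247. These are descriptions over mice of 3 groups that share library composition, without a test.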

How the data were processed

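The authors prepared RRBS libraries from dentate gyrus DNA, trimmed reads with Trim Galore 0.4.0 and cutadapt 1.8.1, aligned them to mm10 with Bismark 0.16.1 and read methylation with methylKit 1.5.2, per the labels (the submitters' processing notes). The methods of the study name other versions of Trim Galore and Bismark, and which were used for this table is not known here. They deposited the percent methylation of each cytosine and mouse for cytosines with at least 10 reads. The table holds 762182 cytosines, of which 762162 are CpGs, without read counts, so that intervals that need depth are not given and a mouse counts the same whatever its coverage. The study tested read counts, whereas here mice were the replicates.

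Genes came from GENCODE release 21 for mouse on mm10. The loci, named CpGs and gene lists were chosen with earlier results of these data known. Named CpGs were the study's Cux2 cytosine, measured CpGs within 500 bases of it and, per gene and comparison, the 2 largest differences in each direction among CpGs measured in every mouse compared. The study's cytosine was found through its immunoprecipitation primers. A listed gene with CUT domains is not reported here. CpGs with at least 3 mice per group were fitted with limma 3.58.1 in R 4.3.3 (moderated test on percent, variance trended on the mean, two-sided, Benjamini-Hochberg over the table). Where a mouse had no value at a CpG, that CpG was fitted without it. Tables were handled in Python 3.11.15.

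Alternatives were a logit scale, 1 prior variance, all groups in 1 fit, library series, composition index or replicate number in the model, medians, other limits on missing values, promoter width, size of the contrast and distance from the gene, and each mouse left out in turn. In simulated data of the Aged STD against Young STD comparison with an SD of 5 points, 200 of 200 CpGs changed by 40 points were recovered among 762162. When the noise was instead taken from the deviations of the mice themselves (361351 CpGs), the test found 0 of 200, 60 at an unadjusted p under 0.05, so single CpGs that differ by 40 points would mostly be missed here.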

Additional observations from a re-analysis of the deposited data

Results flagged for a closer look

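Within groups of 4 to 10 mice, 15 extreme values among 79 groups examined stood further from the nearest other mouse than Dixon's 95% critical value allows. Chance flags about 1 group in 20, and percentages that pile up at 0 or 100 are flagged more easily. On the fragment with the study's Cux2 cytosine, 1 Young STD mouse had 65.12% at chr5:121938791 where the other mice had 100%, 1 Aged ENR mouse had 0% at the same position where the others had 100%, and 1 Young STD mouse had 70% at chr5:121938798 where the next lowest had 96.08%. At the study's cytosine, 1 Aged ENR mouse had 66.67% and the other 3 had 100%. The Cux2 promoters averaged 15.91% in Aged STD mouse 5, and the next highest mouse of its group had 9.235%.

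In cluster 22 of Cux2 (chr5:121958475), 1 Aged STD mouse had 1.724% and 1 Aged ENR mouse had 30.3%, with 0% in all others of their groups that had a value. Aged STD mouse 4 had 100% at both chr5:122048783 and chr5:122048789, near the first base of Cux2 and in the promoter of the antisense transcript Gm15637, where the next highest mice of its group had 10.29% and 10.14%, and 1 Aged ENR mouse had 18.18% at the latter against 0% in the others. At chr5:121928624 of Cux2, 1 Aged ENR mouse had 100% and the next had 31.25%.

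In introns of Cux1, 1 Aged ENR mouse had 62.5% at chr5:136332997 (next 17.17%) and 1 had 22.99% at chr5:136333029 (next 7.143%). A Young STD mouse had 56% at chr5:136382421 (next 9.783%), and an Aged STD mouse had 53.33% at chr5:136382568 where the others had 0%.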

How the results depend on the processing

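In the alternatives run, 1 CpG of Cux2 and 0 of Cux1 were called, in 2 fits of the age contrast (Aged STD minus Young STD mice). With 1 prior variance, 1 CpG was called in the loci and 120 in the whole table, and with all groups in the fit, 1 CpG in the loci and 34 in the whole table. In both it was chr5:121958475. Its adjusted p was 0.261 after adding the composition index and 0.619 after adding library series, and without 1 mouse the smallest adjusted p of the loci ranged down to 0.170. In the other comparisons the count was 0 in every alternative run, and without each mouse in turn it was 0 in all 3.

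No part of Cux1 or Cux2 passed in any alternative, although up to 4 parts of other genes did in some. Of the alternative contrasts of these parts, 236 kept their direction without passing and 9 turned direction. The 35 at the study's cytosine, which had no test, kept their direction. As the cytosine was chosen by these contrasts in these mice, this is a description and no support. The count of called CpGs stayed at 0 in 66 alternatives. As a plain mean over CpGs measured in every mouse (6 cytosines of the rest of Cux1, all in cluster 16, 17 of the Cux2 promoters, 9 of the rest of Cux2), the combined contrast (Aged ENR minus Young STD mice) turned to -1.69 points at the rest of Cux1 and to -0.42 points at the Cux2 promoters, and at the rest of Cux2 the age contrast was -16.2, the housing contrast 11.3 and the combined contrast -4.81 points. The age and housing contrasts were 7.93 and -9.62 points at the rest of Cux1, and 1.40 and -1.82 points at the Cux2 promoters. The Cux1 promoter got no value there. The housing contrast (Aged ENR minus Aged STD mice) of the Cux1 promoter ranged from -0.70 to 0.42 points without 1 mouse. Its sign turned without Aged STD mouse 1 (0.05) or 7 (0.42) and without Aged ENR mouse 2 (0.23), 4 (0.18), 5 (0.16) or 7 (0.20). That of the Cux2 promoters was -0.38 points with promoters taken within 500 bases of a start. Without 1 mouse it ranged from -1.62 to 0.35 points and turned without Aged STD mouse 5 (0.35). Among the other leave-outs that moved a value by over 1.5 times, the age contrast was 0.50 at the Cux1 promoter without Aged STD mouse 7 and 1.08 at the Cux2 promoters without mouse 5. The housing contrast at the rest of Cux2 was 1.40 without Aged STD mouse 3 and 1.29 without Aged ENR mouse 6. The combined contrast ranged over mice from 0.25 to 1.36 at the Cux1 promoter, from 0.64 to 2.51 at the rest of Cux1, from 0.59 to 2.20 at the Cux2 promoters and from -1.91 to -0.32 at the rest of Cux2. At the study's cytosine the age contrast ranged from -49.62 to -37.93 points without 1 mouse, and the housing contrast from 68.89 to 80.48 points. The other strand of this CpG was not measured, so that alternative was not run. The cause of these changes was not tested.

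Replicate numbers name different mice. Deviations of mice with the same number correlated between -0.0965 and 0.0778, so no pairing by number was seen. Mice with different numbers were not compared, so this check cannot exclude one. With the replicate number as a block, 0 CpGs of the loci were called in each comparison, and no call changed. The combined contrast was -2.71 points at the rest of Cux2, 0.36 at the rest of Cux1 and 0.39 at the Cux1 promoter, whose age contrast was 0.49 points. With promoters within 500 bases of a start, the combined contrast was 0.15 points at the Cux2 promoters and -0.17 at the rest of Cux2. With the composition index as a term it was 1.59 at the Cux1 promoter, 2.62 at the rest of Cux1 and -0.08 at the rest of Cux2.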
